A study of Homo sapiens with 3 samples.

Results

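The high mobility group (HMG) genes *HMGB1*, *HMGB2*, *HMGB3*, *HMGA1*, *HMGA2*, *HMGN1*, *HMGN2*, *HMGN3* and *HMGN4* were read on 3 arrays of HCT116 cells, an established human colon cancer line. The set was chosen by a measured value, the *HMGB1* probe, which was brighter with both siRNAs than with control siRNA, and the other 8 genes were added as its relatives. These 9 genes are among 12031 named genes with a usable probe. The cells received control siRNA, siRNA #7 or siRNA #8 for 48 h. Both siRNAs are directed at *HOXA5* short RNA, a transcript of the *HOXA5* locus, and are labelled as silencing it. RNA (400 ng) from each condition was labeled with Cy3 and hybridized to 1 array, and the 3 arrays lay on 1 slide read in 1 scan. Each condition thus has 1 array, so no difference has a replicate check, and the number of arrays limits the precision. Each contrast with control siRNA uses the same control array and was used to choose the set, so these ratios are a description without a test.

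HMG proteins are abundant non-histone chromatin proteins that bind DNA or nucleosomes and change how chromatin is folded. The HMGB proteins bend DNA through HMG boxes, the HMGA proteins bind the minor groove of AT-rich DNA through AT hooks, and the HMGN proteins bind the nucleosome core. *HMGB1* can also be released from cells and act as a damage signal, and *HMGA2* is an oncofetal gene that is repressed by let-7 microRNAs.

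The sequences of the siRNAs are shown because they define the conditions. They share a run of 17 bases, given in capitals, within 21 bases each, so they are not independent of each other in sequence.
siRNA #7: gagaAACUGAAAGACAACAUA
siRNA #8: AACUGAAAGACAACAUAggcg

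*HOXA5* itself had 1 probe, for the *HOXA5* mRNA. It read 84.9 on the control siRNA array, 52.6 after siRNA #7 and 58.5 after siRNA #8. Relative to control siRNA this was a log2 ratio of -0.36 ± 0.25 for siRNA #7 and -0.23 ± 0.26 for siRNA #8. Here and below, ± is the SD between spots of the same probe, taken from probes printed 10 times and combined over both arrays, and it covers the printing and reading of 1 array only. The probe's sequence was not used here, so this value does not check the silencing of *HOXA5* short RNA. Of the colon epithelial markers 7 of 8 had a usable probe (*EPCAM*, *KRT8*, *KRT18*, *KRT19*, *CDH1*, *CLDN3* and *CLDN4*). Usable probes were found for 0 of 5 leukocyte, 1 of 5 fibroblast (*COL1A1*) and 0 of 4 endothelial markers. Only 4 of the 5 leukocyte markers had a probe matched on the array. A usable probe was well above background on all arrays, and each array held 62976 spots in 384 rows and 164 columns, with 313 to 413 gene spots left out for an outlier flag.

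The 9 genes had 15 probes, each printed on 1 spot, and all 15 were well above background on every array with no outlier flag and no saturation. Their intensities ran from 44.1 to 28824. Single probes stood for 5 members, and *HMGB3*, *HMGA2*, *HMGN1* and *HMGN2* had several. For a gene with several probes the brightest was taken as its value, and the others are given beside it. Levels were compared between arrays as log2 intensity minus the 75th percentile of the array, an intensity of 52.8 on the control siRNA array, 42.1 for siRNA #7 and 42.8 for siRNA #8.

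**Figure D1:**
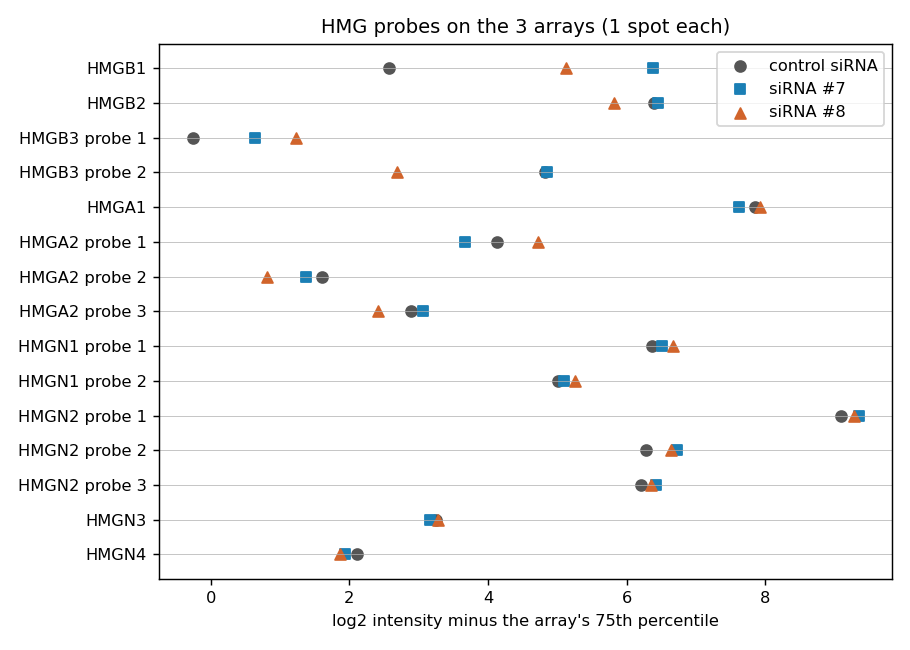
Level of each HMG probe on the 3 arrays, as log2 intensity minus the array's 75th percentile (horizontal axis), with 1 point per array and numbered probes for genes with several. *HMGB1* is lowest with control siRNA, *HMGB3* probe 2 is lowest with siRNA #8, and the *HMGN* points lie close together.

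Among the box proteins, *HMGB1* had the largest ratios to control siRNA of the set. Its intensity was 315 on the control siRNA array, 3520 after siRNA #7 and 1487 after siRNA #8. The control array was the dim one. Against control siRNA the log2 ratio was 3.81 ± 0.16 for siRNA #7, a 14.0-fold difference, and 2.54 ± 0.16 for siRNA #8, a 5.82-fold difference. From the highest of the 12031 genes, these ratios ranked 3 and 5. The siRNA #8 array against the siRNA #7 array, which leaves out the control array, gave -1.27 ± 0.15. The 15 usable spots around it were all lower in this contrast too, by -0.25 to -1.68 with a median of -0.57, where the medians around the other HMG probes ran from -0.44 to 0.54. With the neighbours removed, *HMGB1* between the siRNAs was -0.71 (within 3 rows and columns) or -0.87 (within 5), short of 2-fold.

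The spots around *HMGB1* were also dim on the control array. Of the 15 usable spots within 3 rows and 3 columns, 15 were higher with siRNA #7 than with control siRNA and 13 with siRNA #8, and 7 were at least 2-fold higher with both. Their median log2 ratio was 1.39 for siRNA #7 and 0.96 for siRNA #8. Around the other 14 HMG probes the corresponding medians ran from -0.22 to 0.36 and from -0.42 to 0.42. The 2 largest neighbour ratios were at touching spots, with 2.62 and 2.31 for *CRTC1*, a CREB coactivator, and 2.34 and 1.90 for *RPL23*, a ribosomal protein. *SNAI1*, an epithelial-mesenchymal transition factor, had 1.25 and 0.88 on another touching spot. The remaining named neighbours (*HMBOX1*, *SF3A3*, *SLC38A12*, *HMG20B*, *SORL1*, *L3MBTL2*, *JMJD7-PLA2G4B*, *C5orf15*, *PRIM1*, *LMO2* and *HM13*) ran from 0.18 to 1.97 and from -0.63 to 1.30.

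**Figure D2:**
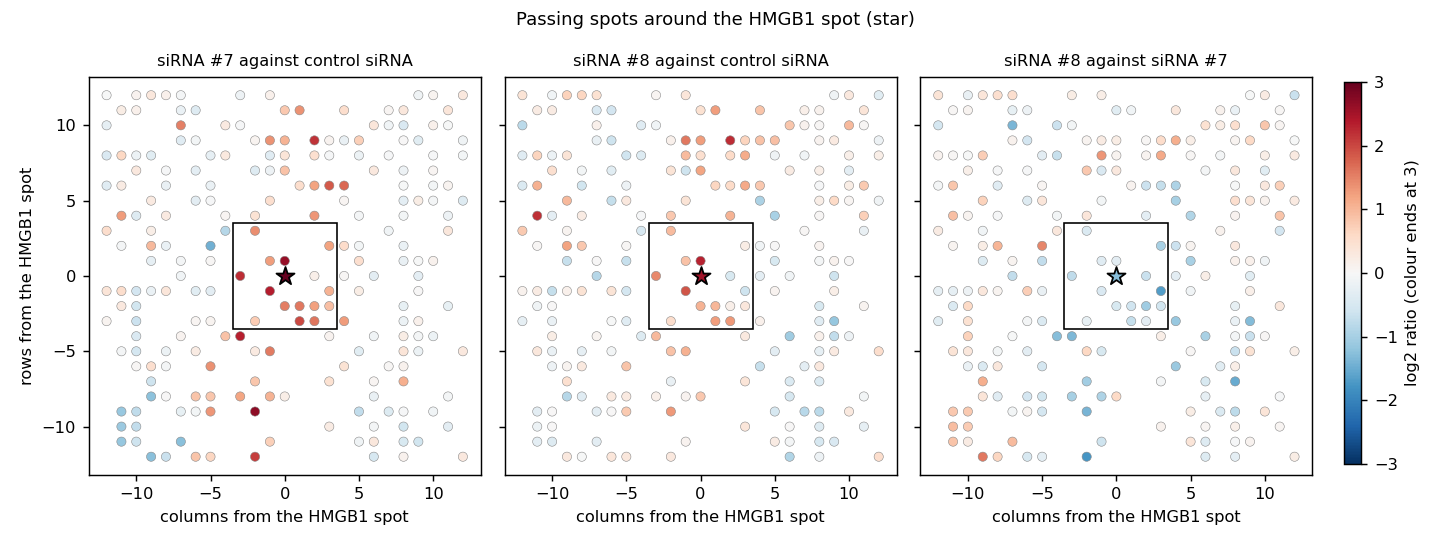
Usable spots within 12 rows and 12 columns of the *HMGB1* spot (star), placed by their row and column offset and coloured by log2 ratio, with a box at 3 rows and columns. Red spots gather inside the box and along the same columns in both contrasts with control siRNA, while in siRNA #8 against siRNA #7 the 15 spots in the box are all below 0, with a median of -0.57.

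With distance the shift faded unevenly. The 3 usable spots touching *HMGB1* had medians of 2.34 for siRNA #7 and 1.90 for siRNA #8. The 12 spots at 2 to 3 steps had medians of 1.31 for siRNA #7 and 0.74 for siRNA #8, and the 24 spots at 4 to 5 steps had 0.09 and -0.01. It ran on along the columns. The 36 spots within 3 columns and 4 to 12 rows away had medians of 0.52 and 0.57, while the 172 spots 4 to 12 columns to the sides had -0.05 and 0.0044.

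Of the named genes near *HMGB1*, 10 were also measured elsewhere on the array, by 12 readings more than 5 rows or columns away. For *PRIM1* and *LMO2* these were other spots of the same probe, and for the rest they were other probes. Of the 12 readings, 12 gave a lower ratio than the spot near *HMGB1* with siRNA #7 and 11 with siRNA #8. *C5orf15* differed least with siRNA #7, at 1.03 elsewhere against 1.05. With siRNA #8 it was higher elsewhere, at 0.32 against -0.63. *RPL23* elsewhere had intensities of 12128, 10754 and 10185 (control siRNA, siRNA #7, siRNA #8), which is 0.15 and 0.05 in log2 ratio. *HMG20B*, itself an HMG-box gene, had 1.53 and 1.05 at its spot 2 rows from *HMGB1* and 0.16 and -0.26 at its brightest probe. *CRTC1* elsewhere had 0.41 and -1.02. *HMGB1* has no other probe to compare.

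Spots of probes printed 10 times gave the same comparison within 1 array. Within 5 rows and 5 columns of *HMGB1* lay 13 such spots, and 12 of them were dimmer on the control array than the median of the other 9 spots of their own probe, by a median log2 of -0.56. On the siRNA #7 array 2 were dimmer, with a median of 0.04, and on the siRNA #8 array 10 were, with a median of -0.13. The spot touching *HMGB1*, for *IDNK*, a gluconokinase gene, read 15.1 on the control array against 43.1 at its other spots, and 63.5 against 58.6 on the siRNA #7 array. On the control array 4 of the 13 were at least 2-fold dim and 5 carried an outlier flag, and 3 spots, *IDNK* included, were both. Flagged spots were kept for this comparison. Over the whole control array 0.786% of such spots were that dim and 5.30% were flagged.

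**Figure D3:**
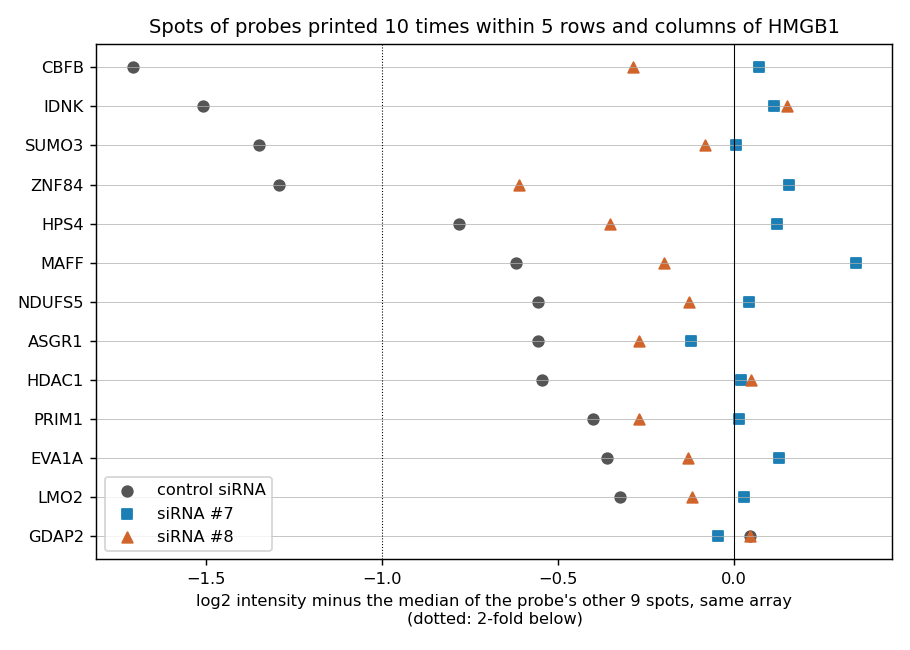
Spots near *HMGB1* of probes printed 10 times, as log2 intensity minus the median of the same probe's other 9 spots on the same array (horizontal axis), with 1 point per array. Control siRNA points lie below 0 for 12 of the 13 spots, and siRNA #7 points lie between -0.12 and 0.35.

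The *HMGB1* spot was also narrow on the control array. Its width in the scanner software's units was 20.03 there, 24.9 after siRNA #7 and 25.1 after siRNA #8, and the spots of the other HMG probes measured 21.9 to 29.1. Only 0.211% of the usable spots of the control array were as narrow. With the median deviation of the neighbours within 3 rows and 3 columns removed, *HMGB1* remained higher than control siRNA by 2.30 with siRNA #7 and 1.59 with siRNA #8. Within 5 rows and 5 columns these values were 3.12 and 2.25. Both windows reach beyond the 3 usable touching spots, whose own median ratios were higher, at 2.34 and 1.90. Removal by the touching spots alone was not run. The part of the dim area in the *HMGB1* ratio was not tested, and its own spot cannot be told apart from the area, since it was printed once per array.

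The 5 genes whose pair of ratios lay nearest to that of *HMGB1* over the 3 arrays were *EIF1B*, *CASP5*, *KRTAP10-12*, *LOC101929452* and *CRTC1*. Their distances were 0.98 to 1.21 on the log2 scale. *CRTC1* lay 1 row from *HMGB1*, and *LOC101929452* lay 21 rows and 1 column away. All 5 lay in columns 1 to 21 of the array's 164, and *HMGB1* lay in column 20. The spots around *EIF1B*, *CASP5*, *KRTAP10-12* and *LOC101929452* had median ratios from -0.18 to 0.40. The part of array position in their ratios was not tested.

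*HMGB2*, the box protein most linked to proliferating cells, read 4451, 3703 and 2408 with control siRNA, siRNA #7 and siRNA #8. It was lowest with siRNA #8. Its log2 ratio was 0.06 ± 0.14 with siRNA #7 and -0.58 ± 0.15 with siRNA #8, and -0.64 ± 0.15 between the siRNAs. Its neighbours within 3 rows and columns had medians of -0.15 and -0.12 against control siRNA. On the siRNA #7 array, 2 spots there of probes printed 10 times were lower than their other spots by a median log2 of -0.55. Of these, 1 carried an outlier flag. Within 5 rows and columns, 9 such spots had a median of -0.23. The part of these local values in the *HMGB2* ratios was not tested.

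*HMGB3*, a box protein of stem and progenitor cells, had 2 probes for the same transcript that differed in direction. The brighter read 1500 on the control siRNA array, 1211 after siRNA #7 and 276 after siRNA #8, so it was dim with siRNA #8 alone. Its log2 ratio was 0.02 ± 0.14 with siRNA #7 and -2.14 ± 0.17 with siRNA #8, a 4.40-fold lower value. Between the siRNAs it was -2.16 ± 0.16. Its spot lay in row 382 of 384, so its window was cut at the array edge. The 15 spots around it had medians of -0.04 and 0.22. On the siRNA #8 array, 2 spots there of probes printed 10 times differed from their other spots by a median log2 of 0.14. With the neighbours removed, its log2 ratio with siRNA #8 was -2.37 (within 3 rows and columns) or -2.36 (within 5). Between the siRNAs it was then -2.38 with either window. The part of local values in these ratios was not tested.

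The dimmer *HMGB3* probe read 44.1, 65.4 and 101, which was highest with siRNA #8. Its ratios were 0.90 ± 0.25 with siRNA #7 and 1.499 ± 0.24 with siRNA #8. Around it 4 spots of probes printed 10 times were lower on the control array by a median log2 of -0.74, and 2 of them were at least 2-fold dim. The 12 usable neighbours had medians of -0.16 and 0.42. The part of these local values in the difference between the probes was not tested. A probe for the pseudogene *HMGB3P1* read 360, 357 and 256, with ratios of 0.31 ± 0.16 and -0.19 ± 0.18, and the *HMGA1P7* probe had 0 arrays on which it was well above background.

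Among the AT-hook genes, *HMGA1*, the widely expressed member, read 12180, 8266 and 10343. Its ratios were -0.23 ± 0.14 with siRNA #7 and 0.07 ± 0.15 with siRNA #8. *HMGA2* had 3 probes for 2 transcripts. The brightest, for NM_003483, read 920, 534 and 1126, lowest with siRNA #7 and highest with siRNA #8. Its ratios were -0.46 ± 0.15 and 0.59 ± 0.16, and siRNA #8 against siRNA #7 gave 1.05 ± 0.15. Its neighbours had medians of 0.03 and 0.06, in a window cut at the array edge, since the spot lay in row 3.

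Both probes for the other *HMGA2* transcript, NM_003484, were lowest with siRNA #8. One read 393, 353 and 229, with ratios of 0.18 ± 0.16 and -0.47 ± 0.18, and its neighbours had medians of 0.02 and -0.42. The other read 160, 110 and 74.9, with ratios of -0.22 ± 0.16 and -0.79 ± 0.21, and its neighbours had -0.22 and -0.20. The direction of *HMGA2* with siRNA #8 thus differed between the probes for the 2 transcripts.

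The nucleosome-binding genes differed little between the arrays. The brightest *HMGN2* probe read 28824, 27539 and 26664, with ratios of 0.26 ± 0.14 and 0.19 ± 0.15, and its other probes had 0.22 to 0.44 with siRNA #7 and 0.14 to 0.36 with siRNA #8. *HMGN1* read 4363, 3825 and 4342, with 0.14 ± 0.14 and 0.30 ± 0.15, and its second probe had 0.09 and 0.24. *HMGN3* read 505, 378 and 414, with -0.09 ± 0.15 and 0.02 ± 0.17. *HMGN4* read 229, 162 and 156, with -0.17 ± 0.16 and -0.25 ± 0.18. No *HMGN* probe was 1.5-fold from control siRNA with either siRNA.

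**Figure D4:**
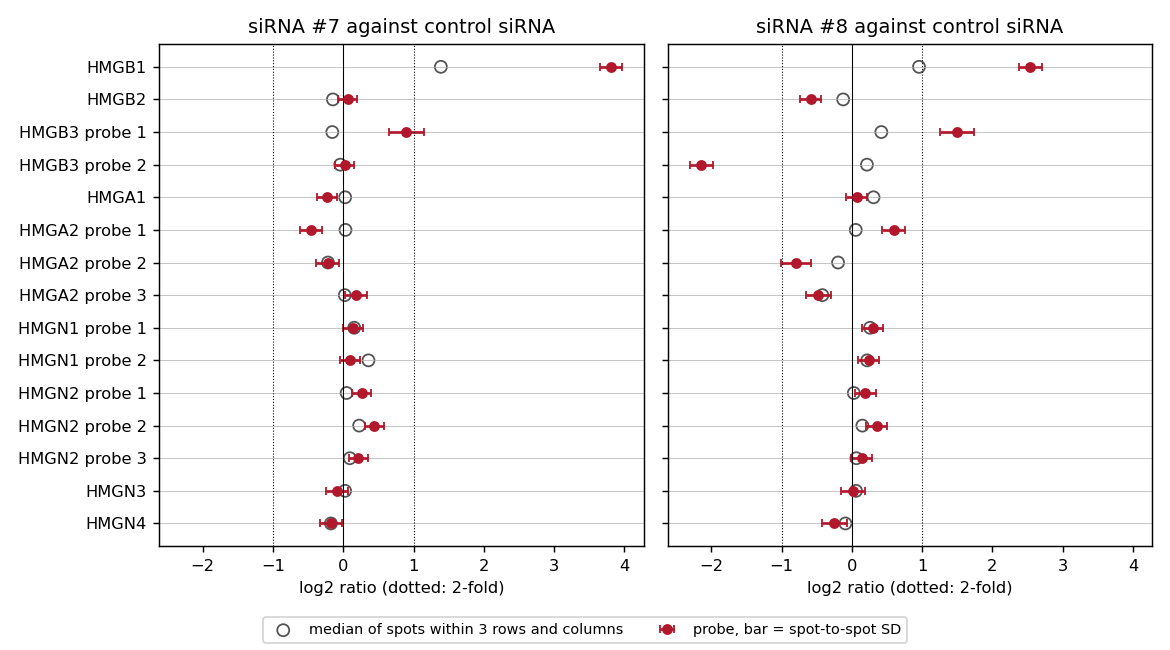
Log2 ratio of each HMG probe to control siRNA (filled points, bars are the spot-to-spot SD) beside the median of the usable spots within 3 rows and columns (open circles), for siRNA #7 (left) and siRNA #8 (right). Only at *HMGB1* do the open circles reach 1.39 and 0.96.

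With siRNA #7, 1 of the 9 genes (*HMGB1*) was at least 2-fold higher and 0 were 2-fold lower, where 2.04% of all 12031 genes were higher and 1.72% lower. With siRNA #8, 1 of 9 (*HMGB1*) was higher and 1 (*HMGB3*) lower, where 1.95% were higher and 3.03% lower. At least 2-fold higher with both was 1 of 9, where 0.74% of all genes were, and *HMGB1* chose the set by this value. Between siRNA #8 and siRNA #7, *HMGA2* was higher and *HMGB1* and *HMGB3* were lower, where 2.29% of all genes were higher and 3.35% lower. With neighbours removed within 3 or 5 rows and columns, *HMGA2* (0.92 or 0.95) and *HMGB1* were short of 2-fold. With a gene's probes averaged, *HMGA2* (-0.056) and *HMGB3* (-0.78) were, and *HMGB3* with siRNA #8 against control siRNA (-0.32) was too. Over the 9 genes the median log2 ratio was 0.02 for siRNA #7 and 0.07 for siRNA #8, beside 0.01 and 0.01 over all genes. Between the siRNAs it was -0.07, beside -0.01.

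**Figure D5:**
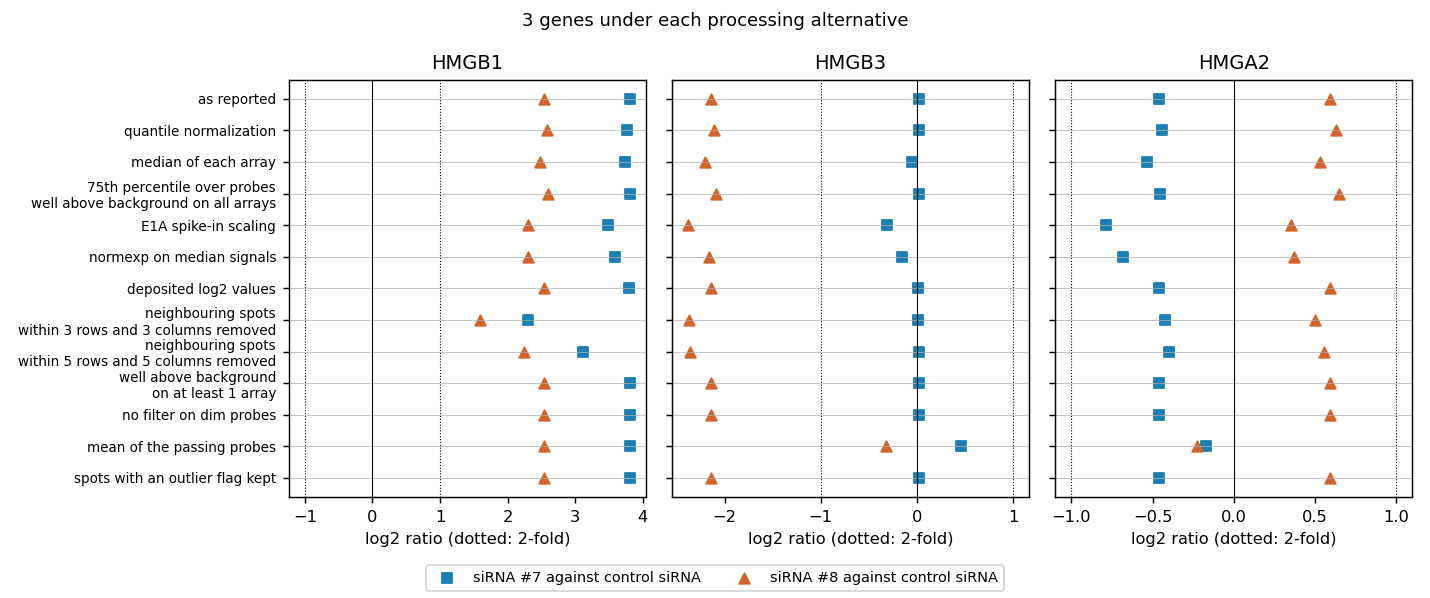
Log2 ratio to control siRNA of *HMGB1*, *HMGB3* and *HMGA2* (horizontal axes, scales differ) under each processing alternative. *HMGB1* stays past 2-fold from control siRNA in all of them and is lowest, at 2.30 and 1.59, with neighbours within 3 rows and columns removed, while *HMGB3* and *HMGA2* with siRNA #8 move most when the mean of the probes is taken. Only neighbour removal takes account of the spots around *HMGB1*.

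Genes of related function were read from lists of known members. Of 28 other HMG-box genes, 22 had a usable probe, with median log2 ratios of -0.08 for siRNA #7 and -0.07 for siRNA #8, beside 0.01 for both over all genes. Past 2-fold was only *HBP1*, a repressor of Wnt and cell cycle genes, which read 25.7, 13.8 and 9.95, with -0.57 ± 0.40 and -1.07 ± 0.41. This made 1 of 22 at least 2-fold lower with siRNA #8, where 3.03% of all genes were. With siRNA #7 it was 0 of 22, where 1.72% of all genes were. *SSRP1*, a subunit of the FACT histone chaperone, had -0.03 and -0.39, and *TOX2* had -0.07 and 0.26.

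Linker histones, which share nucleosome binding sites with HMG proteins, had 4 of 6 listed genes usable and medians of -0.03 with siRNA #7 and -0.83 with siRNA #8. With siRNA #8, 4 of 4 were lower, where 49.2% of all genes were, and 1 was at least 2-fold lower, where 3.03% of all genes were. This was *H1-4*, which read 892, 551 and 274, with -0.37 ± 0.15 and -1.40 ± 0.18. *H1-2* had 0.18 and -0.45.

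Receptors and partners of *HMGB1* had 7 of 13 genes usable, with medians of 0.18 and -0.37 and none past 2-fold. Of all genes 1.72% to 3.03% were past 2-fold, depending on direction and siRNA. *BECN1*, an autophagy gene, had 0.18 and -0.37, *XPO1*, the nuclear exporter, had -0.13 and -0.38, and *CD24* had 0.64 and 0.73. The SET complex, which contains *HMGB2*, had 4 of 5 genes usable and medians of 0.11 and 0.06. *SET* had 0.87 and 0.82 at its brightest probe, -0.36 and 0.0041 at the next and 0.13 and 0.46 at the dimmest. *NME1* had -0.75 and -0.29, and its neighbours had medians of -0.50 and -0.16. In the let-7, LIN28 and *HMGA2* axis 5 of 8 genes were usable, with medians of -0.20 and -0.18. *DICER1*, the nuclease that matures microRNAs, read 461, 120 and 205, with -1.61 ± 0.16 and -0.86 ± 0.18, and its neighbours had medians of -0.52 and 0.30. It was the 1 of 5 at least 2-fold lower with siRNA #7, where 1.72% of all genes were. *IGF2BP3*, an RNA-binding let-7 target, had -0.78 and -0.66. *DROSHA* had 0.10 and 0.04, *IGF2BP2* had -0.20 and 0.11, and *AGO2* had 0.26 and -0.18. *HMGN5*, the remaining *HMGN* relative, had 0.22 ± 0.05 and 0.16 ± 0.06 over 10 spots. For this probe ± is the SD between spots divided by the square root of the 10 spots. It is therefore smaller than for probes on 1 spot.

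Promoters were compared as 300-base windows around the start sites, from RefSeq on GRCh38.p14. A window matched for 7 of the 9 genes, 11 windows in all, and did not for *HMGB2* and *HMGA2*. The CCAAT box, searched as CCAAT on both strands, was in 8 of the 11, beside 34.6% of 35116 windows of all genes. GGGCGG was in 8 of 11, beside 45.0%, and TATAAA in 1 of 11, beside 11.53%. The searched letters of the 3 motifs were counted separately. GC content ran from 53.0 to 87.0%, beside a median of 58.7% over all windows. The 2 windows with 3 CCAAT boxes each, found in 3.26% of all windows, belong to *HMGB1* (chr13:30465887-30466186, minus strand) and *HMGB3* (chrX:150983085-150983384, plus strand). They are shown with the boxes in capitals, as a description of the letters only.
HMGB1: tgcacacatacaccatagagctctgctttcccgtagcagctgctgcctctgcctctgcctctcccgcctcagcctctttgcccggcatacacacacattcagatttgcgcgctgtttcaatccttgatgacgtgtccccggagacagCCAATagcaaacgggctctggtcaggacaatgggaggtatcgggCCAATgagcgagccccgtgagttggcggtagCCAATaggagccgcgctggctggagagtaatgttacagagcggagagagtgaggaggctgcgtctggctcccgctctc
HMGB3: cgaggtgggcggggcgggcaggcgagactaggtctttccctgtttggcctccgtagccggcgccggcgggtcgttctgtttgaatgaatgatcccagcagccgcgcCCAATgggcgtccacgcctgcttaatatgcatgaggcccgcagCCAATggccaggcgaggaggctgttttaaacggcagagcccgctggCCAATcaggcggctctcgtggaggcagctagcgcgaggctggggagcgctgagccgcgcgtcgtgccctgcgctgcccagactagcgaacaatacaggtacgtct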

How the data were processed

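Total RNA of HCT116 cells was measured on 3 one-colour SurePrint G3 arrays. The authors read the scans with Agilent Feature Extraction 11.5.1.1, and the intensity they deposited per spot is background-subtracted and unscaled between arrays. Log2 values of 21189 probes, each centred over the arrays, were deposited as a second table, which holds all 15 HMG probes and was used as an alternative. Because the arrays were designed on another build, RefSeq accessions were matched to symbols of GRCh38.p14 without versions.

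With Python 3.11.15 (numpy 2.4.6, pandas 2.3.3, scipy 1.17.1), flagged outlier spots were dropped, spots of a probe were averaged on the log2 scale, and the 75th percentile over all gene probes was subtracted. Usable probes (18121) reached the 20th percentile on 2 or more arrays and were well above background on all 3, judged by 50% or more of their spots. The spot-to-spot SD came from probes printed 10 times, pooled in 6 ranges of signal. No test was run, and a gene was called when past 2-fold. Steps were run on simulated data with an evenly dim square and no flagged spots. The area around *HMGB1* is uneven and holds flagged spots, so this does not check the neighbour removal there. Files number the siRNAs otherwise than the labels, which were followed.

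The members and lists were chosen with earlier results of these data known. The linker histone list leaves out 1 gene, which is not reported here. The text names all members and their pseudogene probes, *HOXA5*, usable neighbours of *HMGB1*, the 5 genes nearest to its ratios, list members past 2-fold and up to 3 of each list by intensity. *IDNK* and the comparisons with probes measured elsewhere, with probes printed 10 times and along the columns were chosen after seeing the data. Alternatives were quantile normalization, the array median, the percentile over detected probes, 10 E1A spike-in probes, normexp (limma 3.58.1 in R 4.3.3, offset 50) on median signals, the deposited log2 values, neighbour removal within 3 or 5 rows and columns, other filters, the mean of probes, flagged spots kept and a 1.5-fold threshold.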

Additional observations from a re-analysis of the deposited data

Results flagged for a closer look

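*HMGA2* was flagged because its ratio to control siRNA had opposite signs with the 2 siRNAs, each larger than the spot-to-spot SD. The ratio with siRNA #8 minus that with siRNA #7 was 1.05 on the log2 scale at its brightest probe. Each condition has 1 array, so the difference was not tested, and with the mean of the 3 *HMGA2* probes it was -0.056.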

How the results depend on the processing

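No paired analysis was possible because only 1 array was made of every condition, and for the same reason no replicate could be left out. The local shift around *HMGB1* has no value where the neighbours themselves were removed. With E1A spike-in scaling, which lowers all ratios to control siRNA by 0.32 (siRNA #7) and 0.24 (siRNA #8), the median log2 ratio of the HMG genes was -0.31 and -0.17 and the shift around *HMGB1* was 1.06 and 0.72. With normexp these were -0.26, -0.11, 1.001 and 0.62. The shift with siRNA #8 was 0.70 in the deposited log2 values, and with no filter on dim probes it was 0.97 with siRNA #7 and 0.39 with siRNA #8. With neighbours within 5 rows and columns removed, the median with siRNA #7 was -0.15. The mean of the passing probes left 1 gene past 2-fold with siRNA #8 and turned *HMGA2* between the siRNAs to -0.056. Without *HMGB1*, an alternative chosen after seeing the data, 0 genes were past 2-fold with siRNA #7 and 1 with siRNA #8. With flagged spots left out, also chosen after seeing the data, repeat spots near *HMGB1* were lower on the control array by -0.36, against -0.56 as reported. Of 324 single-gene values, 263 moved by less than the spot-to-spot SD, 60 by more, and 1 changed sign after being past 2-fold. Against control siRNA, *HMGB1* was past 2-fold with both siRNAs under all 12 of its alternatives, but between the siRNAs it was -0.71 and -0.87 with neighbours removed, where *HMGA2* was 0.92 and 0.95. Of these 12, only neighbour removal takes account of the spots around *HMGB1*. The others reread the same single dim spot, and the set was chosen by this value, so the count is no check of it. The mean of the probes gave -0.32 for *HMGB3* with siRNA #8 and -0.78 between the siRNAs. Signal over background limits the dimmer *HMGB3* probe, *HBP1* and *HOXA5*, whose SD is 0.24 or more in each contrast with control siRNA.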
